A study of Homo sapiens with 21 samples.

Results

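Total RNA was sequenced from lines made from NLF, an established human neuroblastoma line, and the question here is which RNAs differ between a YAP1-knockout line and a control-guide line grown without drug. The comparison uses 6 of the 21 libraries of the series, 3 of the knockout line YAPKO2 and 3 of the control line sgCON, chosen by line and treatment from the labels. YAPKO2 carries a CRISPR guide against YAP1 and is labelled as a knockout of that gene. The sgCON line was transduced with a Cas9 lentivirus and a scrambled guide. Cells of both lines received DMSO, the solvent of the MEK inhibitor trametinib, from 24 h after plating and for 72 h. The labels of the samples give DMSO as 0.01%, while the text of the series gives 0.1%. Another 3 libraries of parental NLF cells, with no guide and also labelled DMSO, give a reference level, and 3 libraries of YAPKO1, a line made with another YAP1 guide, are used where YAPKO2 is set against a second knockout line. The labels do not say whether YAPKO2 or sgCON is 1 clone or a pool of cells, so a difference between these lines may belong to the line as well as to the knockout. Nor do they say that the replicates are separate cultures. The p-values use 1 spread per gene within the groups of all 21 libraries, trametinib-treated ones included. That spread may be technical.

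YAP1 is a transcriptional coactivator. With its paralogue WWTR1 (TAZ) it binds the TEAD transcription factors and drives genes of growth, matrix and cell adhesion, and the Hippo kinases STK3, STK4, LATS1 and LATS2 keep both coactivators out of the nucleus. Neuroblastoma cells descend from the neural crest and lie between an adrenergic state, carried by factors such as HAND2 and GATA3, and a mesenchymal state, in which YAP and TAZ are usually more active.

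The guides show where the edit was aimed, with the PAM of each YAP1 guide, taken from the annotated transcripts, in capitals. The scrambled guide had 0 matches followed by a PAM among the transcripts.
YAPKO2 guide: gtgcacgatctgatgcccggCGG
YAPKO1 guide: cgccgtcatgaaccccaagaCGG
sgCON guide: gcactcacatcgctacatca
The YAPKO2 guide matched the minus strand of chromosome 11 at 102110997 to 102111016 (GRCh38), in exon 1 of YAP1 and in the coding part of 7 of the 11 annotated transcripts. The YAPKO1 guide matched the plus strand at 102111058 to 102111077, and 41 bases lie between the 2 sites. The stretch of exon 1 around both sites (chr11:102110982-102111092, plus strand) has the YAPKO2 site in capitals.
YAP1 exon 1: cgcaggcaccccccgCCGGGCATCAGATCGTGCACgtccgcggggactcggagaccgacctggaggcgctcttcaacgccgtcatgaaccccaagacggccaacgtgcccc

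Levels below are FPKM (fragments per kilobase, relative to the size of the library) scaled between libraries. Changes are log2(FPKM + 0.5) in YAPKO2 minus sgCON, ± SE, from limma with p-values adjusted by Benjamini-Hochberg over all genes tested. Of 16194 genes tested, 4362 passed an adjusted p of 0.05 (26.9%). In YAPKO2, 2260 were higher (14%) and 2102 lower (13%). The counts of each list below are to be read against these shares. At 2-fold or more, 482 were higher and 878 lower. The values of the 2 groups did not overlap in 26.3% of genes with YAPKO2 above sgCON and in 26.2% with YAPKO2 below. Without YAPKO2 replicate 2, where fewer libraries enter the model, 1340 genes were higher and 1232 lower.

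The libraries also differed in how GC-rich transcripts were represented. A GC trend was taken in each library as the difference, in log2, between the median deviations of genes at 57.6% GC or more and at 43.4% or less, and it stood at 0.08, 0.59 and 0.15 in YAPKO2 libraries, against -0.39, -0.49 and -0.37 in sgCON libraries. Every YAPKO2 library lay above every sgCON library. Across genes, the change had a Spearman rho of 0.431 with transcript GC content, and of -0.01 after a spline correction within each library. Over the 15615 tested genes with a known GC content, 2391 were higher and 2593 lower after the correction. List counts after the correction are to be read against these. The part of the GC trend in single changes was not tested, and values after the correction are given where the rises or falls of a list shift by at least 3 genes or its median by at least 0.15. The number of reads per library was not given, so depth is unknown. From 13730 to 14030 genes reached 1 FPKM in YAPKO2 libraries and 13940 to 13990 in sgCON libraries.

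YAP1 itself (ENSG00000137693.9, chromosome 11) fell in YAPKO2 but did not vanish. Its RNA stood at 3.17, 2.69 and 2.81 in YAPKO2 cells, against 24.9, 24.2 and 27.7 in sgCON cells, with 29.4, 32.8 and 33.3 in parental cells. The 3 YAPKO2 values lay far below all the others (log2 change -2.95 ± 0.23, adjusted p = 5.03e-08). The RNA level does not report the protein, since an edit in the coding part need not remove the RNA. WWTR1, which encodes the paralogue TAZ, was also lower, at 3.81, 2.71 and 3.4 in YAPKO2 cells, against 5.46, 6.86 and 4.84 in sgCON cells (log2 change -0.71 ± 0.17, adjusted p = 0.00621).

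The TEAD factors, which carry YAP and TAZ to DNA, moved less. Of the 7 coactivators and TEAD partners tested, 1 rose and 3 fell, with a median change of -0.16, against 0.01 over all genes tested. That median turned to 0.12 after the GC correction. TEAD1 had 14.7, 12.6 and 14.2 in YAPKO2 cells, against 15.9, 16.5 and 13.9 in sgCON cells, and these values overlapped. TEAD2 was the most abundant of the 4 TEAD genes, at 71.1, 93.2 and 78.8 in YAPKO2 cells, against 57.9, 65 and 60.9 in sgCON cells (log2 change 0.39 ± 0.18, adjusted p = 0.11). TEAD4 had 26.4, 33.4 and 26.1 in YAPKO2 and 21.3, 20.5 and 21.9 in sgCON cells, with an adjusted p of 0.134. Neither TEAD2 nor TEAD4 passed, although both were higher in every YAPKO2 library. TEAD3 fell by a small step (log2 change -0.46 ± 0.14, adjusted p = 0.0241). It lies in a run of neighbouring genes on chromosome 6, described below, with a median of -0.18 (-0.36 after the GC correction). VGLL4, a protein that competes with YAP for the TEADs, rose to 20.9, 21.9 and 22.5 in YAPKO2, against 12.8, 13.8 and 13.9 in sgCON (log2 change 0.67 ± 0.09, adjusted p = 4.15e-05). The parental cells, at 23.9, 22.8 and 23.1, stood at the YAPKO2 level of VGLL4 and not at that of sgCON.

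**Figure D1:**
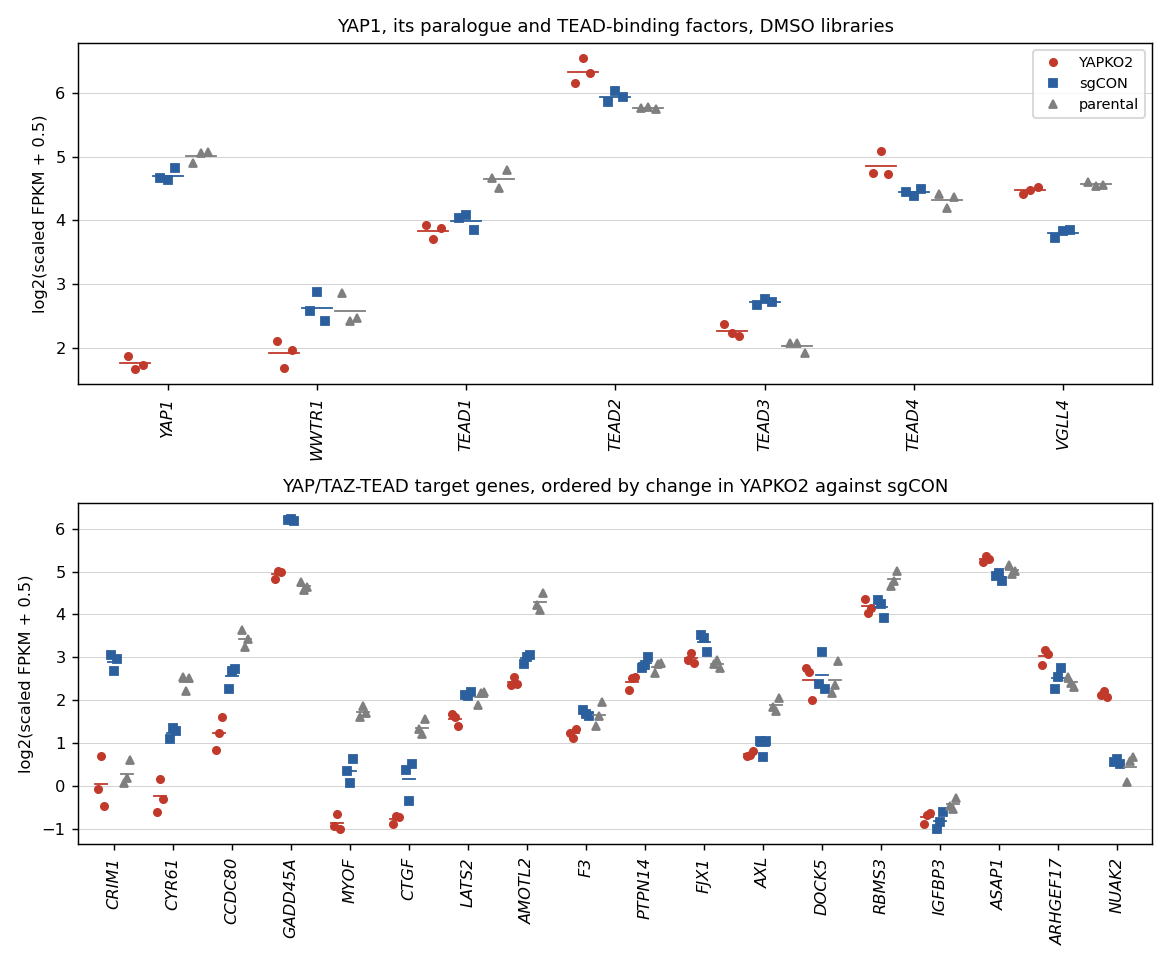
Levels of YAP1, its paralogue, the TEAD genes and VGLL4 (upper panel) and of the 18 tested YAP/TAZ-TEAD target genes (lower panel) in the 3 YAPKO2, 3 sgCON and 3 parental DMSO libraries, on the scale log2(scaled FPKM + 0.5), with a bar at each group mean. YAP1 has a log2 change of -2.95 in YAPKO2, and NUAK2 and CRIM1 mark the ends of the target list.

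Target genes of YAP, TAZ and TEAD mostly fell. Of 18 tested members, 10 fell and 3 rose, with a median change of -0.45 (-0.61 after the GC correction), and 9 fell and 1 rose without YAPKO2 replicate 2. CYR61, which encodes a matrix protein of the CCN family, had 0.16, 0.626 and 0.312 in YAPKO2 cells, against 1.63, 2.07 and 1.91 in sgCON cells, and parental cells stood at 5.35, 4.13 and 5.19 (log2 change -1.48 ± 0.23, adjusted p = 0.000123). CTGF, its relative in that family, had 0.040, 0.113 and 0.104 in YAPKO2 and 0.795, 0.282 and 0.917 in sgCON cells (log2 change -0.95 ± 0.25, adjusted p = 0.01). Both CCN genes were thus low in sgCON cells too. ANKRD1, another standard target, was listed at 0 in all but 1 of the YAPKO2, sgCON and parental libraries and was not tested.

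The largest falls among the targets were in genes with different parental levels. CRIM1, a membrane protein that binds BMPs, had 0.45, 1.13 and 0.229 in YAPKO2 cells, against 7.78, 5.93 and 7.26 in sgCON cells (log2 change -2.84 ± 0.36, adjusted p = 1.73e-05), and parental cells, at 0.546, 0.644 and 1.02, were as low as YAPKO2. CCDC80, a matrix protein, had 1.3, 1.84 and 2.56 in YAPKO2 cells, against 4.27, 5.91 and 6.15 in sgCON cells, and parental cells stood higher than both, at 11.9, 8.95 and 10.2. GADD45A, a growth arrest gene that p53 also drives, had 28, 31.9 and 31.4 in YAPKO2 cells, against 73.2, 74.9 and 72.4 in sgCON cells, with 26.7, 23.2 and 24.3 in parental cells. Its YAPKO2 level thus lay near the parental one. MYOF, a membrane repair protein, was close to 0 in YAPKO2, at 0.020, 0.133 and 0, against 0.775, 0.544 and 1.05 in sgCON. NUAK2, a kinase that YAP induces in other cells, rose, with 3.87, 4.12 and 3.68 in YAPKO2 cells, against 0.972, 1.05 and 0.937 in sgCON cells (log2 change 1.56 ± 0.18, adjusted p = 7.11e-06). AXL, a receptor kinase of the mesenchymal state, had 1.12, 1.15 and 1.27 in YAPKO2 and 1.57, 1.09 and 1.56 in sgCON, which overlapped.

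The Hippo kinases and their upstream regulators changed by less. Of 28 tested genes 4 rose and 8 fell, with a median of -0.27. Without YAPKO2 replicate 2, 1 rose and 5 fell (median -0.12), and after the GC correction 3 rose and 10 fell (median -0.15). LATS2, both a Hippo kinase and a YAP target, fell to 2.69, 2.54 and 2.15, against 3.87, 3.76 and 4.1 in sgCON (log2 change -0.58 ± 0.14, adjusted p = 0.0074). The scaffold genes AJUBA, FRMD6 and WWC2 fell, with log2 changes of -0.72 ± 0.17, -0.74 ± 0.17 and -0.91 ± 0.26. DCHS1, a protocadherin upstream of the pathway, rose by 0.68 ± 0.15. The core kinases STK3, STK4 and LATS1 did not pass (adjusted p = 0.0892, 0.0986 and 0.369).

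The 12 largest falls took several abundant RNAs of sgCON cells to almost nothing. S100A10, the calcium-binding partner of annexin A2, had 0.19, 0 and 0 in YAPKO2 cells, against 138, 132 and 149.8 in sgCON cells (log2 change -7.98 ± 0.29, adjusted p = 2.42e-12), and 171, 127 and 167 in parental cells. ANXA1, an annexin that binds membranes in response to calcium, had 0.19, 0 and 0.166 in YAPKO2 cells, against 44.3, 43.1 and 40.2 in sgCON cells (log2 change -6.13 ± 0.29, adjusted p = 8.49e-11). In both genes YAPKO2 libraries were at or near 0 while every sgCON and parental library was above 40. MOXD1, a monooxygenase known as a marker of neural crest cells, had 0.22, 0.339 and 0.343 in YAPKO2 cells, against 46.4, 54 and 48.3 in sgCON cells (log2 change -5.97 ± 0.14, adjusted p = 6.05e-15). MME, the cell surface peptidase neprilysin, had 0.20, 0 and 0 in YAPKO2 cells, against 23.5, 18.8 and 21.8 in sgCON cells (log2 change -5.28 ± 0.15, adjusted p = 1.94e-13). CD36, a fatty acid transporter, had 0.31, 0.185 and 0.052 in YAPKO2 cells, against 19.8, 18.5 and 24.1 in sgCON cells, with 74.3, 83 and 85.9 in parental cells.

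The other 7 of the 12 largest falls included a neuropeptide, a caspase and an interferon-induced gene. NPY, a neuropeptide of sympathetic neurons, had 2.02, 1.08 and 1.12 in YAPKO2 cells, against 40.7, 35.6 and 35.6 in sgCON cells (log2 change -4.34 ± 0.20, adjusted p = 6.21e-11). CASP8, the initiator caspase of death receptors, had 0.090, 0.37 and 0.208 in YAPKO2 cells, against 10.2, 16.4 and 12.3 in sgCON cells, and 16.5, 17.3 and 16.7 in parental cells. Its log2 change was -4.21 ± 0.27 (adjusted p = 4.42e-09), and every YAPKO2 value was below 1. IFITM3, an interferon-induced membrane protein, had 2.82, 2.36 and 2.22 in YAPKO2 cells, against 57.2, 50.4 and 63.8 in sgCON cells, with 29.1, 29.2 and 26.1 in parental cells. LBH, a transcription cofactor first described in limb bud and heart, had 0.25, 0.0513 and 0.333 in YAPKO2 and 11.7, 13.6 and 12.5 in sgCON. B3GALNT1, a glycosyltransferase, had 0.030, 0 and 0 in YAPKO2 and 9.86, 8.56 and 7.78 in sgCON. Both were thus below 1 in every YAPKO2 library. HIST1H4C, a histone gene, and NFE4, a globin gene regulator, fell too, and in both sgCON stood far above the parental cells. HIST1H4C had 2.75, 2.99 and 3.09 in YAPKO2 cells, against 57.7, 55.7 and 54.6 in sgCON cells, and 8.51, 5.95 and 4.01 in parental cells. NFE4 had 0.83, 0.267 and 0.322 in YAPKO2 cells, against 15.5, 14.9 and 16.4 in sgCON cells, and 3.2, 1.51 and 3.0 in parental cells.

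**Figure D2:**
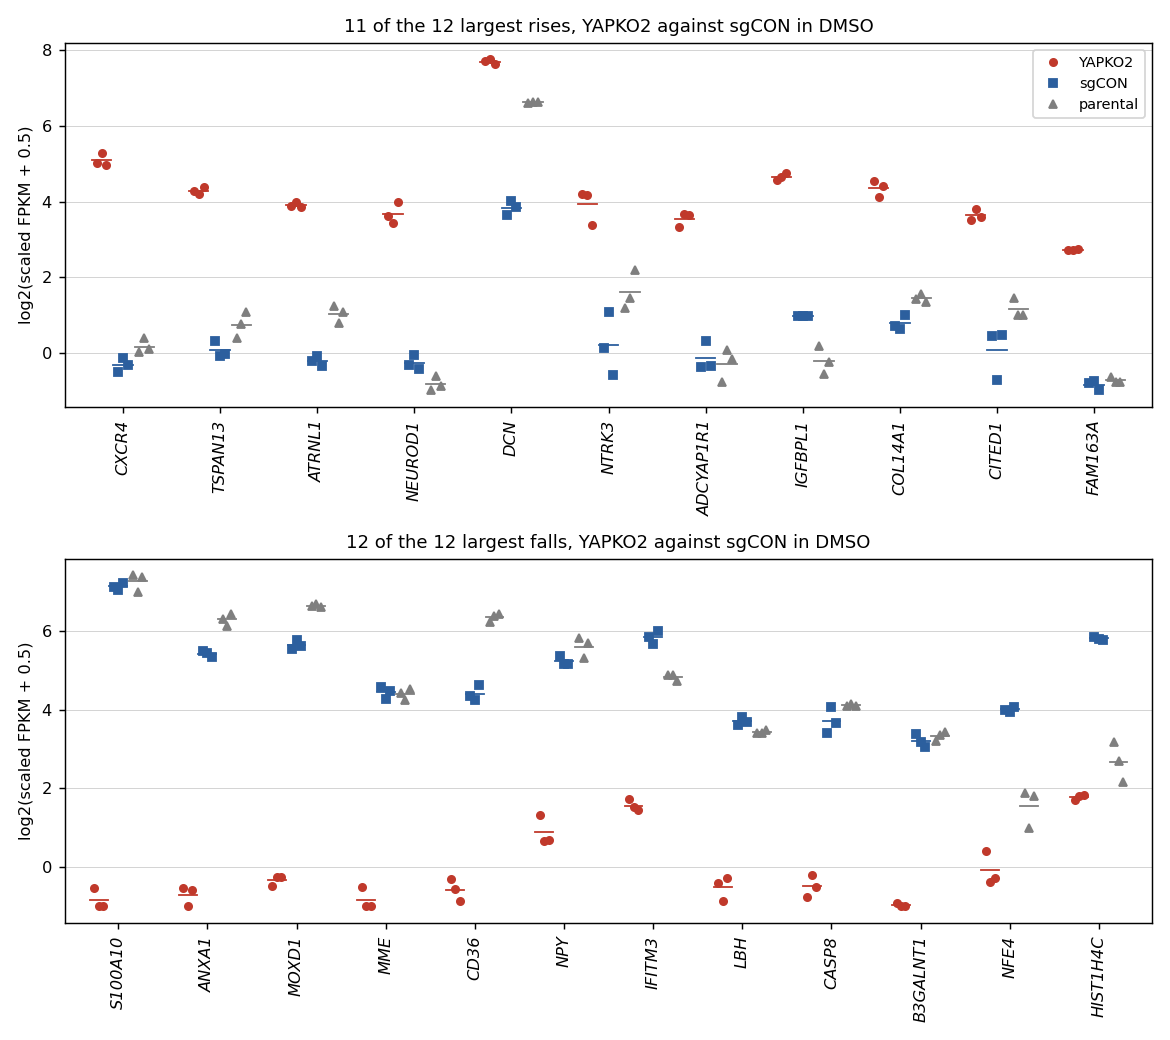
Levels of 11 of the 12 largest rises (upper panel) and the 12 largest falls (lower panel) in the 3 YAPKO2, 3 sgCON and 3 parental DMSO libraries, on the scale log2(scaled FPKM + 0.5), with a bar at each group mean. The genes were chosen among those whose YAPKO2 and sgCON values do not overlap, and parental cells differ from gene to gene, with DCN, for example, between the 2 groups.

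Promoters of the falling genes were read for the core of the TEAD motif, GGAATG and its reverse complement CATTCC, so that both strands were searched. The windows run from 250 bases before to 50 after the start of a gene (RefSeq, GRCh38.p14). Of 9637 protein-coding tested genes with a window, 10.7% held the motif, of the 1461 called lower 13.4% and of the 1562 called higher 9.22%. Over all 35116 windows the share was 14.03%. The calls are those before the GC correction, and the windows were not matched for GC content. The part of the GC trend in these shares was not tested. Among the 12 largest falls, MME, CD36 and B3GALNT1 held 1 match each, and NFE4 and HIST1H4C were not matched to a window. MME and S100A10 show the difference, with the motif of MME in capitals.
MME promoter, chr3:155079422-155079721, plus strand: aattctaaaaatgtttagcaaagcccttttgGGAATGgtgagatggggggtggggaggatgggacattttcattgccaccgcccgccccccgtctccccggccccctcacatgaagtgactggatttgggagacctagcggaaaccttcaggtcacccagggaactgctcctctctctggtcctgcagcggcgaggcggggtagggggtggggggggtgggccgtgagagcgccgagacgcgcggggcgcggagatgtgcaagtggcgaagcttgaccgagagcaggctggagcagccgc
S100A10 promoter, chr1:151993810-151994109, minus strand: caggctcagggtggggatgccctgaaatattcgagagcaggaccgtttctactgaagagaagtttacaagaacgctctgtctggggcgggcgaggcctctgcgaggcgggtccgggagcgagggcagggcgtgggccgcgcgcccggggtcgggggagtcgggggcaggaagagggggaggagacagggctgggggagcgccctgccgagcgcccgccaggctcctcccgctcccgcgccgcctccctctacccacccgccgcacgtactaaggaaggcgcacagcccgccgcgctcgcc
A match describes the letters in this window and is no measurement of binding.

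The largest rise was that of CXCR4, and receptors of other signals were among those that followed. CXCR4, the receptor of the chemokine CXCL12, had 32.2, 38.2 and 30.7 in YAPKO2 cells, against 0.196, 0.403 and 0.299 in sgCON cells (log2 change 5.42 ± 0.19, adjusted p = 1.85e-12), with 0.506, 0.797 and 0.575 in parental cells. NEUROD1, a neurogenic transcription factor, had 11.7, 10.2 and 15.4 in YAPKO2 cells, against 0.304, 0.454 and 0.239 in sgCON cells (log2 change 3.95 ± 0.25, adjusted p = 4.28e-09). NTRK3, the receptor of neurotrophin-3, had 18, 17.7 and 9.94 in YAPKO2 cells, against 0.589, 1.61 and 0.169 in sgCON cells (log2 change 3.72 ± 0.37, adjusted p = 1.17e-06). Each of these was near or below 1 in most sgCON libraries and well above it in every YAPKO2 library. ADCYAP1R1, the receptor of the neuropeptide PACAP, had 9.5, 12.2 and 12 in YAPKO2 and 0.265, 0.736 and 0.289 in sgCON. CITED1, a transcription coregulator, had 11, 13.4 and 11.6 in YAPKO2 and 0.864, 0.111 and 0.877 in sgCON. The tetraspanin TSPAN13, the attractin relative ATRNL1, the IGF-binding protein relative IGFBPL1 and FAM163A rose by log2 changes of 4.23 ± 0.18, 4.13 ± 0.22, 3.68 ± 0.20 and 3.57 ± 0.16.

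Some of these genes were already expressed in parental cells. DCN encodes decorin, a small matrix proteoglycan. It had 211, 217 and 198 in YAPKO2 cells, against 12, 15.8 and 13.9 in sgCON cells (log2 change 3.87 ± 0.16, adjusted p = 1.06e-11), and 96.7, 99.7 and 99.4 in parental cells, so sgCON lay below and YAPKO2 above the parental level. COL14A1, a fibril-associated collagen, had 23.1, 16.8 and 20.6 in YAPKO2, 1.14, 1.05 and 1.5 in sgCON and 2.17, 2.42 and 2.04 in parental cells. Among abundant genes, CHRNA3, the alpha-3 subunit of the ganglionic nicotinic receptor, had 149, 155 and 152 in YAPKO2 cells, against 16.9, 12.3 and 14.7 in sgCON cells (log2 change 3.34 ± 0.13, adjusted p = 9.25e-12), with 14.3, 21 and 19.2 in parental cells. RGS4, which damps G protein signalling, had 124, 109.7 and 158 in YAPKO2 cells, against 32, 28.8 and 35.6 in sgCON cells, but 188, 169 and 186 in parental cells. HIST2H2AA3 also stood among the rises of abundant genes, at 1.46 ± 0.23, but it has a near-identical copy in hg19 between which reads can be split, so its value is uncertain.

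Genes that p53 drives fell as a group. Of 29 tested p53 targets 27 fell and 0 rose, with a median change of -0.96, where 13% of all genes tested fell. After the GC correction 29 fell, and without YAPKO2 replicate 2, 24 fell. CDKN1A, the cell cycle inhibitor p21, had 87.4, 98.9 and 97 in YAPKO2 cells, against 394, 398 and 378 in sgCON cells (log2 change -2.04 ± 0.15, adjusted p = 2.31e-08). MDM2, the ubiquitin ligase that degrades p53, had 72.1, 41.3 and 63.2 in YAPKO2 cells, against 245, 247 and 237 in sgCON cells (log2 change -2.07 ± 0.28, adjusted p = 4.25e-05). GDF15, a secreted stress cytokine, had 16.7, 21.2 and 17 in YAPKO2 cells, against 77, 72 and 72.6 in sgCON cells (log2 change -1.99 ± 0.22, adjusted p = 3.08e-06). The 2 groups stood apart in all 3 genes.

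On the log2 scale the parental level lay nearer to YAPKO2 than to sgCON for CDKN1A, GDF15 and FDXR, and nearer to sgCON for MDM2 and RRM2B. CDKN1A had 129, 114 and 127 in parental cells, GDF15 had 16.7, 11.4 and 15.6, and FDXR, a mitochondrial reductase, had 31.6, 27.7 and 28 against 28.2, 26.7 and 23.8 in YAPKO2 and 68.2, 67.5 and 65.5 in sgCON. MDM2 had 131, 127 and 139.7 in parental cells, between the other groups. RRM2B, a ribonucleotide reductase subunit for DNA repair, varied between the YAPKO2 libraries, with 14.1, 6.11 and 10.6 in YAPKO2 cells, against 60.2, 64.4 and 52.9 in sgCON cells and 31.6, 30.8 and 33.2 in parental cells. TP53I3, an oxidoreductase, was highest in parental cells, with 18.9, 21.8 and 18.6 in YAPKO2, 30.7, 27.9 and 30.3 in sgCON and 65.9, 63.6 and 66.7 in parental cells. Summed over the 30 genes of the list, the level was 971 to 1010.2 in YAPKO2 libraries, 2150 to 2228 in sgCON libraries and 1149 to 1244 in parental libraries. The sgCON sum thus stood above both other groups. The p53-driven apoptosis genes BAX and BBC3 fell, with log2 changes of -0.84 ± 0.15 and -0.79 ± 0.14, as did FAS, a death receptor, with -1.20 ± 0.25. AEN, an apoptosis nuclease, and CYFIP2 were the targets that did not pass, with adjusted p = 0.718 and 0.218.

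**Figure D3:**
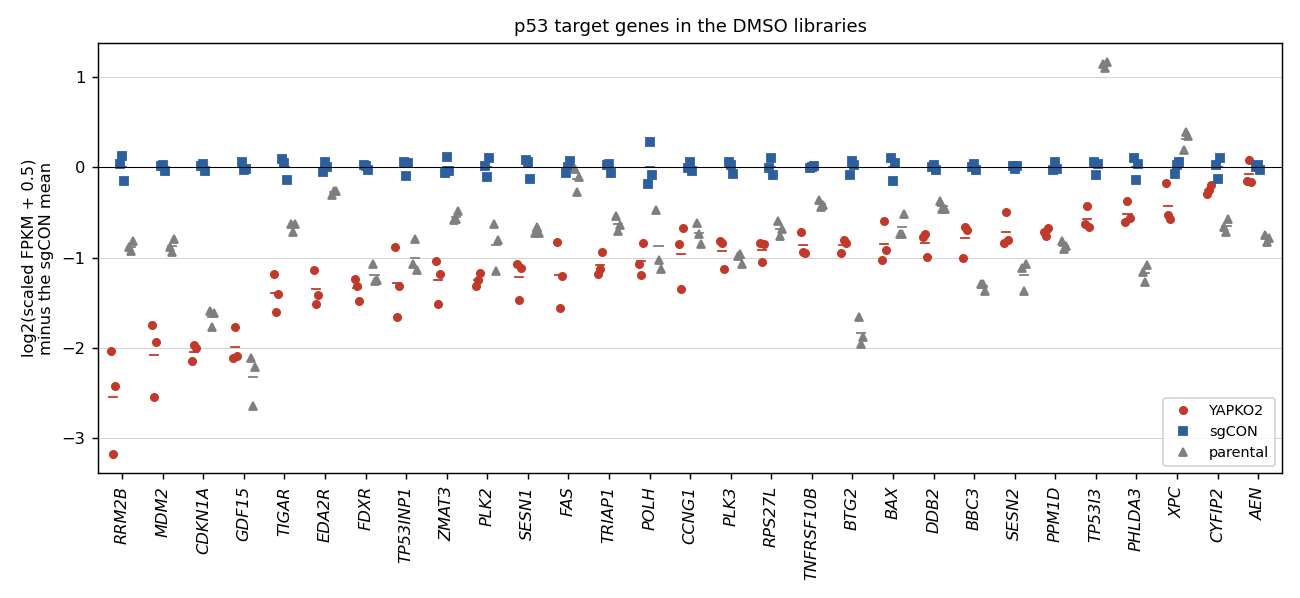
The 29 tested p53 target genes in the 3 YAPKO2, 3 sgCON and 3 parental DMSO libraries, as log2(scaled FPKM + 0.5) minus the sgCON mean of the gene, with a bar at each group mean and genes ordered by the change in YAPKO2. YAPKO2 values lie below the sgCON mean for every gene but AEN, and parental values lie below it for every gene but TP53I3 and XPC.

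Membrane, matrix and adhesion genes fell more often than they rose. Of 15 annexin and S100 genes tested, 7 fell and 0 rose (median -0.51). Besides S100A10 and ANXA1, S100A16 fell to 9.01, 12.9 and 10.3, against 45, 45.7 and 46.1 in sgCON and 88.2, 77.8 and 88.7 in parental cells. Of 19 caveolar and actin-linked genes, 7 fell and 2 rose (median -0.25). The coat proteins of caveolae were near 0, with CAVIN1 at 0.020, 0.0308 and 0.0208 in YAPKO2 cells, against 7.89, 7.22 and 9.0 in sgCON cells (log2 change -4.02 ± 0.15, adjusted p = 3.04e-12), and CAVIN2 at 0.35, 0.472 and 0.51 in YAPKO2 and 8.28, 8.38 and 7.98 in sgCON. Parental cells held 23.7, 22.5 and 24.8 of CAVIN1, above sgCON. The actin crosslinker ACTN1 rose by 0.72 ± 0.17.

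Matrix genes moved in both directions. Of 15 collagen genes 4 fell and 3 rose (median -0.21, and -0.41 after the GC correction). The fibrillar collagen COL3A1 had 26.4, 25.4 and 22.6 in YAPKO2 cells, against 95.4, 92.3 and 101 in sgCON cells (log2 change -1.94 ± 0.08, adjusted p = 2.04e-11), and COL1A1 had 5.99, 4.24 and 2.87 in YAPKO2 and 19.4, 16.4 and 16.8 in sgCON. COL1A2, the partner chain of COL1A1 in type I collagen, moved the other way, with 7.79, 5.33 and 6.51 in YAPKO2 cells, against 1.54, 0.786 and 1.28 in sgCON cells (log2 change 2.06 ± 0.22, adjusted p = 3.21e-06). The 2 chains of the same fibre thus changed in opposite directions. Of 35 matrix glycoproteins, proteoglycans and modifiers, 10 fell and 6 rose (median -0.29), and 19 fell and 4 rose after the GC correction. POSTN, periostin, had 1.93, 0.78 and 1.03 in YAPKO2 cells, against 20, 21.3 and 18.8 in sgCON cells and 65.9, 69.1 and 70.3 in parental cells. FBN1, fibrillin-1, and SPARC, a collagen-binding glycoprotein, fell, with log2 changes of -2.61 ± 0.17 and -1.48 ± 0.11. SDC2, the heparan sulphate proteoglycan syndecan-2, rose, with 11.3, 10.2 and 13.1 in YAPKO2 cells, against 0.422, 1.01 and 0.608 in sgCON cells (log2 change 3.38 ± 0.24, adjusted p = 2.17e-08).

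Of 21 integrin and laminin genes, 8 fell and 1 rose (median -0.41). ITGB5, the integrin beta-5 chain, had 38.7, 37.8 and 31.8 in YAPKO2, 88.9, 79.5 and 94.7 in sgCON and 174, 193 and 209 in parental cells, in that order without overlap. ITGAV, its alpha-V partner, ITGB8 and ITGA2 fell, with log2 changes of -1.65 ± 0.34, -1.53 ± 0.17 and -1.44 ± 0.21. ITGA9 was the single rise, at 2.43, 2.36 and 2.96 in YAPKO2 against 0.108, 0.484 and 0.149 in sgCON, and parental cells held 2.84, 3.19 and 3.02.

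**Figure D4:**
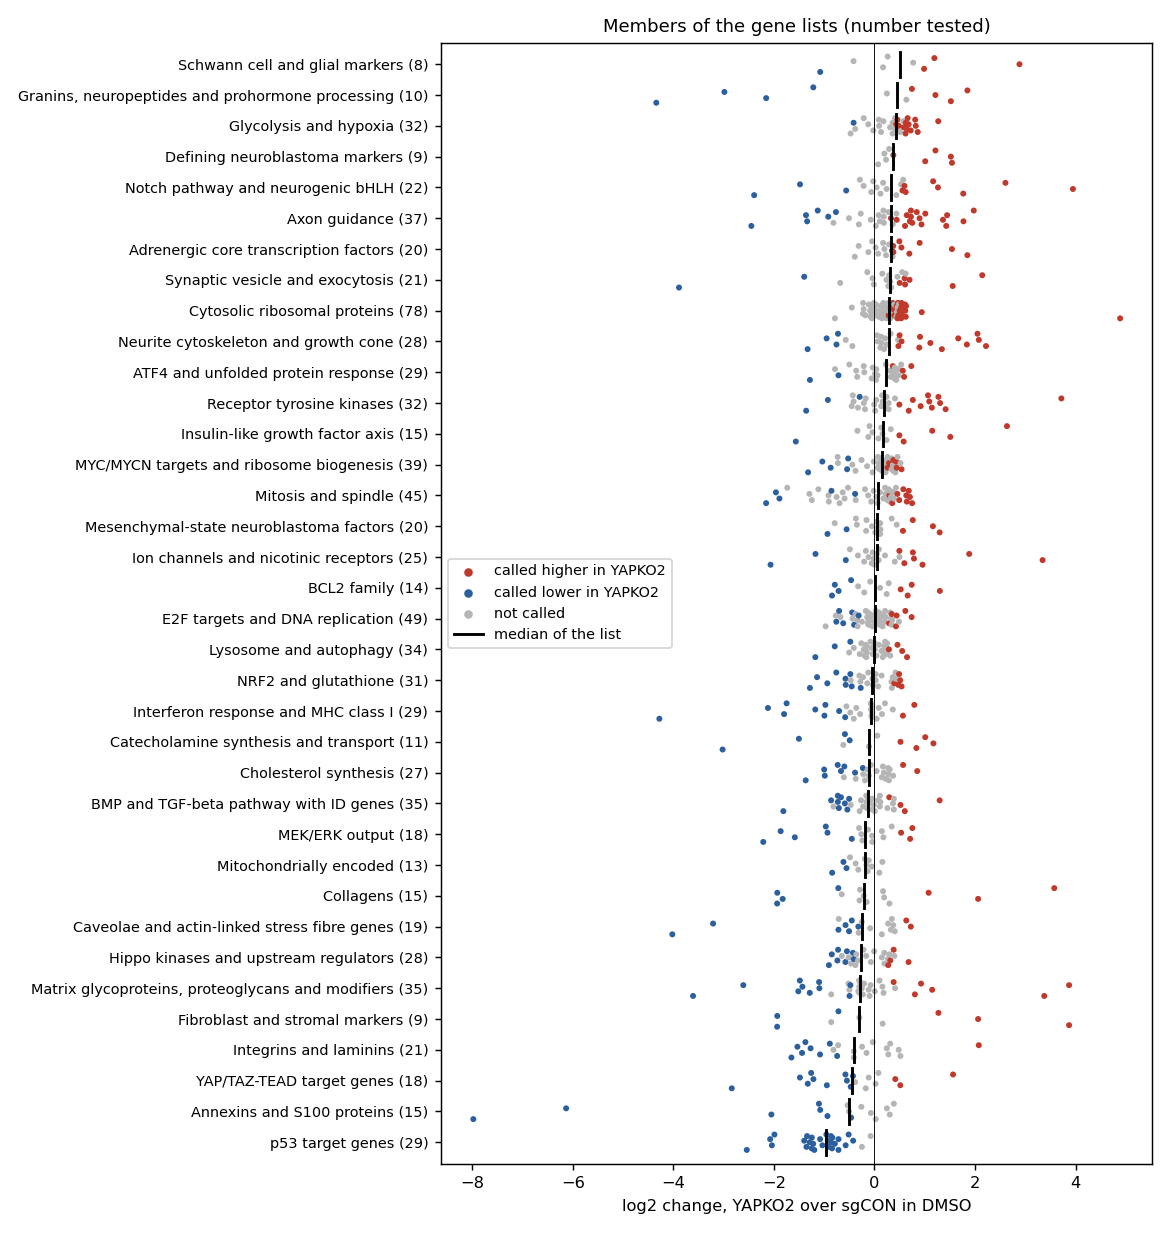
Log2 change in YAPKO2 over sgCON for each tested member of the gene lists with at least 8 tested genes, 1 list a row with its number of tested genes, coloured by whether the member was called higher, called lower or not called, with a black bar at the median. The p53 targets have the lowest median, at -0.96, and the list medians otherwise lie between -0.51 and 0.52.

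Adrenergic factors such as HAND2 were expressed in both lines, and part of the adrenergic genes rose. TH, DBH, CHGA and CHGB, given below, were at or near 0 in sgCON. Of 9 tested defining markers of neuroblastoma 5 rose and 0 fell (median 0.38, and 0.21 after the GC correction). HAND2, a bHLH factor of sympathetic neurons, had 70.1, 78 and 78.6 in YAPKO2 cells, against 67.7, 76.7 and 71 in sgCON cells, GATA3, a zinc finger factor of that lineage, had 17.5, 20.9 and 18.6 in YAPKO2 cells, against 17.4, 15.5 and 16.5 in sgCON cells, and neither passed. Of 20 adrenergic transcription factors 9 rose and 0 fell (median 0.32), and after the GC correction 8 rose and 1 fell. GATA2, another zinc finger factor, rose by 0.90 ± 0.14 and INSM2, a neuroendocrine zinc finger gene, by 0.54 ± 0.11. MYCN, the oncogene of this tumour, had 117, 127 and 131 in YAPKO2 cells, against 98.8, 98.1 and 92.2 in sgCON cells, and its small rise (log2 change 0.38 ± 0.12, adjusted p = 0.0311) was lost in 7 of the alternatives tried. Parental cells held less MYCN than either line, at 29.1, 35.3 and 31.4.

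Factors of the mesenchymal state did not move together. Of 20 tested, 4 rose and 2 fell (median 0.05), and 3 and 1 without YAPKO2 replicate 2. The 30% called was near the 26.9% of all genes tested. SNAI1 and SNAI2, repressors of epithelial genes, rose by 1.16 ± 0.15 and 0.76 ± 0.16. FOSL1 and FOSL2, subunits of AP-1, fell, with log2 changes of -0.93 ± 0.17 and -0.55 ± 0.19. TWIST1 had 78.5, 88.3 and 92.2 in YAPKO2 and 94.4, 84.1 and 77.8 in sgCON, which overlapped. VIM, the intermediate filament vimentin, was among the most abundant RNAs in all groups, at 1343, 1686 and 1455 in YAPKO2 and 1219, 1211 and 1097 in sgCON (adjusted p = 0.0906).

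Neurite and growth cone genes rose more often than they fell, 12 against 4 of 28 (median 0.28). PRPH, the neuronal filament peripherin, had 74.8, 90.3 and 82.1 in YAPKO2 cells, against 17.5, 17 and 17.3 in sgCON cells (log2 change 2.22 ± 0.17, adjusted p = 5.31e-08). DCX, a microtubule protein of migrating neurons, had 3.42, 2.78 and 3.33 in YAPKO2 and 0.51, 0.393 and 0.229 in sgCON. GAP43, a growth cone protein, had 134, 163 and 130.2 in YAPKO2, 55.8, 52 and 59.3 in sgCON and 109, 111 and 109 in parental cells. ELAVL3, a neuronal RNA-binding protein, and INA, a neurofilament subunit, rose by 2.05 ± 0.22 and 1.84 ± 0.11. MAP2, the microtubule protein of dendrites, fell to 11.9, 10.8 and 11.7, against 29.2, 27.4 and 32.1 in sgCON.

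Of 22 Notch pathway and neurogenic bHLH genes 8 rose and 3 fell (median 0.34), and after the GC correction 7 rose and 6 fell (median 0.12). The Notch ligand DLL3, which acts inside the same cell, had 24.9, 30.9 and 26.7 in YAPKO2 cells, against 3.95, 4.37 and 3.96 in sgCON cells (log2 change 2.60 ± 0.17, adjusted p = 6.89e-09). DLL1, a ligand for neighbouring cells, rose by 1.77 ± 0.18, while JAG1, another ligand, fell, with a log2 change of -1.48 ± 0.16. NHLH2, a neuronal bHLH factor, fell to 3.43, 2.31 and 3.64, against 17.6, 20.8 and 16.7 in sgCON. Ligands and bHLH factors of the same list thus moved both ways.

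Of 21 synaptic vesicle and exocytosis genes, 6 rose and 2 fell (median 0.31). SYP, the vesicle protein synaptophysin, had 3.01, 3.26 and 3.6 in YAPKO2 cells, against 0.324, 0.312 and 0.438 in sgCON cells (log2 change 2.14 ± 0.24, adjusted p = 4.19e-06). SYT4, a synaptotagmin, had 0.70, 0.318 and 0.655 in YAPKO2 cells, against 16.3, 15.1 and 13.6 in sgCON cells (log2 change -3.89 ± 0.28, adjusted p = 2.3e-08). SNAP25, a subunit of the fusion machinery, fell, with a log2 change of -1.40 ± 0.20. Granins, neuropeptides and their processing enzymes split evenly, with 4 of 10 higher and 4 lower. SCG2, secretogranin II, had 17.7, 15.1 and 18 in YAPKO2 cells, against 134, 143 and 135 in sgCON cells (log2 change -2.99 ± 0.17, adjusted p = 1.21e-09), and VGF, a neuropeptide precursor, had 0.76, 0.76 and 0.77 in YAPKO2 and 5.91, 4.21 and 5.39 in sgCON. CHGA, chromogranin A, rose but stayed low, at 0.77, 1.34 and 1.15 in YAPKO2 and 0.0981, 0 and 0.0498 in sgCON. CHGB was listed at 0 in all sgCON libraries and stood at 0.54, 0.688 and 0.759 in YAPKO2. PAM, which amidates neuropeptides, fell, with a log2 change of -1.22 ± 0.09. The 3 abundant members NPY, SCG2 and PAM all fell, and the summed level of the list was 148 to 171 in YAPKO2 libraries and 379 to 385 in sgCON libraries.

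Genes of catecholamine synthesis and breakdown also moved both ways, 4 of 11 each. MAOB, a monoamine oxidase, had 2.64, 2.68 and 1.58 in YAPKO2 cells, against 21.4, 21.5 and 22.6 in sgCON cells (log2 change -3.02 ± 0.22, adjusted p = 2.3e-08). Its relative MAOA and GCH1, which acts in making the cofactor of tyrosine hydroxylase, fell, with log2 changes of -0.59 ± 0.09 and -1.50 ± 0.19. DDC, which forms dopamine, had 13.4, 16.5 and 14.9 in YAPKO2, 5.4, 8.37 and 5.61 in sgCON and 12.6, 13.3 and 14.3 in parental cells. SLC6A2, the noradrenaline transporter, rose by 0.83 ± 0.16. DBH, which forms noradrenaline, reached 0.45, 0.677 and 0.562 in YAPKO2, against 0.0294, 0 and 0.0498 in sgCON. TH, the first enzyme of the path, was listed at 0 in all but 1 YAPKO2 library, and at 0 in every sgCON library, so it could not be tested.

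Receptors of growth and guidance signals rose more often than they fell. Of 32 receptor tyrosine kinases 11 rose and 3 fell (median 0.19), and after the GC correction 11 rose and 5 fell (median 0.02). ALK, mutated in some neuroblastomas, had 0.98, 0.975 and 0.863 in YAPKO2 and 0.0491, 0.0202 and 0.0498 in sgCON (log2 change 1.41 ± 0.16, adjusted p = 4.39e-06). PDGFRB rose and ERBB4 fell, with log2 changes of 1.27 ± 0.17 and -1.36 ± 0.28. Of 37 axon guidance genes 17 rose and 6 fell (median 0.33), with 13 rises and 8 falls after the GC correction (median 0.15), and 11 and 5 without YAPKO2 replicate 2. SLIT3, a guidance ligand, had 59.8, 64.5 and 54.8 in YAPKO2 cells, against 23.4, 20.3 and 21.2 in sgCON cells (log2 change 1.44 ± 0.13, adjusted p = 2.38e-07). NRP1, a semaphorin and VEGF receptor, had 12.4, 11 and 11.2 in YAPKO2, 31.3, 27.5 and 32.6 in sgCON and 87.8, 80.6 and 97.8 in parental cells. SEMA3C, a secreted semaphorin, was listed at 0, 0.103 and 0 in YAPKO2, against 3.42, 2.06 and 1.95 in sgCON.

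Of 25 ion channel and nicotinic receptor genes 7 rose and 3 fell (median 0.05, and 0.23 after the GC correction). CHRNB4, the usual partner of CHRNA3 in ganglionic receptors, had 14.4, 15.4 and 13.6 in YAPKO2 cells, against 3.46, 4.24 and 3.04 in sgCON cells (log2 change 1.88 ± 0.15, adjusted p = 9.14e-08). Both nicotinic subunits thus rose, and in parental cells CHRNB4 stood at 2.57, 2.64 and 2.81. SCN9A, a sodium channel of sympathetic neurons, and KCNMA1, a calcium-gated potassium channel, fell, with log2 changes of -1.17 ± 0.25 and -2.07 ± 0.18.

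Output genes of the MEK and ERK kinases fell in part, in cells given no MEK inhibitor. Of 18 tested, 6 fell and 3 rose (median -0.18, and -0.33 after the GC correction), and 6 and 1 without YAPKO2 replicate 2. DUSP6, the phosphatase that ERK induces against itself, had 6.95, 5.63 and 6.42 in YAPKO2 cells, against 27.2, 23.5 and 22.6 in sgCON cells (log2 change -1.87 ± 0.19, adjusted p = 1.59e-06), and 16.8, 14.6 and 15.7 in parental cells. EPHA2, an ephrin receptor, had 3.65, 4.68 and 4.68 in YAPKO2, 22.7, 22.1 and 20.6 in sgCON and 9.32, 8.89 and 9.93 in parental cells. SPRY1, a feedback inhibitor, fell, with a log2 change of -0.97 ± 0.14. DUSP4 and DUSP5, phosphatases of the same family, rose by 0.75 ± 0.12 and 0.71 ± 0.21. In all 3 of the falls named here the sgCON level lay above the parental one. Summed over the list, the parental libraries instead stood highest, at 413 to 453. The sum was 299 to 312 in sgCON and 250 to 283 in YAPKO2 libraries.

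In the BMP and TGF-beta list 4 of 35 rose and 9 fell (median -0.14), and 3 rose and 5 fell without YAPKO2 replicate 2. ID1, an inhibitor of bHLH factors that BMP induces, had 62.7, 81.4 and 54.6 in YAPKO2 cells, against 30.1, 25.4 and 23.9 in sgCON cells (log2 change 1.30 ± 0.15, adjusted p = 4.64e-06), and 84.5, 70.9 and 72.6 in parental cells. The BMP antagonist GREM1 fell, with a log2 change of -1.81 ± 0.18. In the insulin-like growth factor list 5 of 15 rose and 1 fell (median 0.16, and 0.04 after the GC correction). H19, the imprinted non-coding RNA beside IGF2, had 34, 47.9 and 37.4 in YAPKO2 cells, against 4.79, 7.07 and 6.09 in sgCON cells (log2 change 2.64 ± 0.25, adjusted p = 5.2e-07). IGF1R, the receptor, rose by 0.49 ± 0.12.

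Proliferation genes showed no common shift. Of 49 E2F target and replication genes 6 rose and 6 fell (median 0.00), and without YAPKO2 replicate 2, 1 rose and 5 fell. After the GC correction 9 rose and 9 fell. Before it 24.5% of them were called, near the 26.9% of all genes tested. Of 45 mitosis genes 10 rose and 5 fell (median 0.06), with 7 and 1 without that replicate and 13 and 6 after the GC correction. UBE2C, a mitotic ubiquitin-conjugating enzyme, rose to 233, 277 and 235, against 160.3, 154 and 148 in sgCON. CENPF, a kinetochore gene, had 46.8, 12.9 and 25.1 in YAPKO2 and 100.4, 103 and 91.4 in sgCON, and its lowest value came from YAPKO2 replicate 2. Its change was -1.96 ± 0.68 and -1.54 after the GC correction, and 7 alternatives lost the call. Of 39 MYC target and ribosome biogenesis genes 6 rose and 5 fell (median 0.15), and 2 rose and 2 fell without that replicate. After the GC correction 7 of them rose and 9 fell, with a median of 0.0040. The 28.2% called before it was likewise near the share over all genes tested.

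Ribosomal protein genes rose by small steps. Of 78 tested, 26 rose and 0 fell (median 0.28), but without YAPKO2 replicate 2 only 4 rose, with a median of 0.23. After the GC correction 30 rose and 1 fell. RPS27, on chromosome 1, had 6689, 8474 and 8380.4 in YAPKO2 cells, against 3931, 4307 and 3971 in sgCON cells (log2 change 0.94 ± 0.11, adjusted p = 1.02e-05). Reads of ribosomal protein genes can be shared with their many pseudogenes, so single values are uncertain.

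Apoptosis genes outside the p53 list shifted in both directions. Of 14 BCL2 family genes 4 rose and 4 fell (median 0.01). BCL2L1, which encodes the survival protein BCL-XL, had 27.8, 32 and 25.9 in YAPKO2 cells, against 11.9, 14.1 and 8.45 in sgCON cells (log2 change 1.30 ± 0.19, adjusted p = 0.000104). MCL1, another survival protein, rose by 0.52 ± 0.09, while BCL2 itself, a survival protein as well, fell, with a log2 change of -0.71 ± 0.21. Survival genes of this family thus moved both ways.

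Glycolysis and hypoxia genes rose more often than they fell. Of 32 tested, 14 rose and 1 fell (median 0.43), and 11 and 1 without YAPKO2 replicate 2. EGLN3, an oxygen-sensing hydroxylase, had 17, 19.6 and 18.8 in YAPKO2 cells, against 7.56, 6.81 and 7.74 in sgCON cells (log2 change 1.27 ± 0.14, adjusted p = 2.55e-06), and 19.1, 19.9 and 21.5 in parental cells. HK2, the first enzyme of glycolysis, rose to 27.9, 28.5 and 27.3, against 16.6, 17.5 and 19.9 in sgCON (log2 change 0.62 ± 0.08, adjusted p = 2.96e-05). The glucose transporters SLC2A1 and SLC2A3 rose by 0.81 ± 0.19 and 0.72 ± 0.14, and LDHA, which forms lactate, by 0.43 ± 0.10. GAPDH did not pass (4357, 5649.5 and 4676 in YAPKO2 and 3407, 3329 and 3527 in sgCON, adjusted p = 0.0542).

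In cholesterol synthesis 8 of 27 genes fell and 2 rose (median -0.11). HMGCS1, an early enzyme of the path, had 16.3, 13.3 and 15.1 in YAPKO2 cells, against 39.7, 39.6 and 38.2 in sgCON cells (log2 change -1.37 ± 0.25, adjusted p = 0.000661), and FDFT1, squalene synthase, fell, with a log2 change of -0.99 ± 0.15. Of 31 NRF2 and glutathione genes 9 fell and 5 rose (median -0.04), with 7 falls and 1 rise without YAPKO2 replicate 2 and 12 falls and 5 rises after the GC correction (median -0.18). NFE2L2, which encodes NRF2, and the cystine transporter SLC7A11 fell, with log2 changes of -1.14 ± 0.33 and -1.28 ± 0.24. Of 29 genes of ATF4 and the unfolded protein response 4 rose and 2 fell (median 0.23), with ATF4 itself higher by 0.36 ± 0.07. Without YAPKO2 replicate 2, 2 of these rose and 2 fell, and after the GC correction 5 rose and 5 fell. Lysosome and autophagy genes had 4 rises and 3 falls among 34 (median -0.02), and 1 rise and 3 falls without that replicate. After the GC correction this list had 3 rises and 11 falls. Before it 20.6% of this list and 20.7% of the ATF4 list were called, below the 26.9% of all genes tested. Among 13 mitochondrially encoded genes 3 fell and 0 rose (median -0.19), and after the GC correction 0 passed.

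Interferon response and MHC class I genes fell more often than they rose, 9 against 2 of 29 (median -0.07), with 7 against 0 without YAPKO2 replicate 2 and 11 against 1 after the GC correction (median -0.32). Besides IFITM3, IFI44L had 9.78, 8.85 and 15 in YAPKO2 cells, against 49.3, 49.6 and 48.6 in sgCON cells (log2 change -2.12 ± 0.27, adjusted p = 1.69e-05). IFITM2, a neighbour and close relative of IFITM3, fell too, with a log2 change of -1.75 ± 0.34, but reads of the 2 genes may be shared.

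Markers of other cell types were measured to describe what the cultures held. In bulk RNA, fewer cells of a type and less RNA per cell cannot be told apart. Of 8 Schwann cell and glial markers 3 rose and 1 fell (median 0.52, with 0.28 after the GC correction and 0.36 without YAPKO2 replicate 2). NGFR, the low-affinity neurotrophin receptor of neural crest cells, had 3.75, 3.86 and 3.92 in YAPKO2 cells, against 0.0883, 0.141 and 0.0399 in sgCON cells (log2 change 2.88 ± 0.21, adjusted p = 1.89e-08), while S100B fell to 0, 0.513 and 0.333, against 0.962, 1.55 and 0.827 in sgCON. Their summed level was 58.6 to 70.9 in YAPKO2, 45.5 to 49.6 in sgCON and 62.9 to 68.0 in parental libraries. Of 9 fibroblast and stromal markers 3 rose and 3 fell, with summed levels of 402 to 631 in YAPKO2 and 462 to 542 in sgCON. Of 5 epithelial markers 3 fell and 0 rose (median -1.14, and -1.38 after the GC correction). KRT18, a simple epithelial keratin, had 0.73, 0.729 and 0.562 in YAPKO2 cells, against 14.3, 14.7 and 15.7 in sgCON cells (log2 change -3.72 ± 0.21, adjusted p = 8.13e-10), with 3.16, 2.82 and 2.57 in parental cells. CD68 was the only tested blood or endothelial marker, at 0.72, 1.15 and 0.343 in YAPKO2, 2.01, 2.04 and 2.43 in sgCON and 12.4, 9.72 and 13.1 in parental cells, with a log2 change of -1.15 ± 0.29 (-1.37 after the GC correction and -1.39 without YAPKO2 replicate 2). The part of such markers in the other changes was not tested.

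The called genes were not spread evenly over the chromosomes. Of protein-coding genes tested, 16.1% were higher and 15.3% lower. On chromosome 1, 28.3% were higher and 17.3% lower, on chromosome 2, 7.37% and 30.8%, and on chromosome 6, 7.20% and 25%. Genes were then taken in blocks of about 40 neighbours in the gene order of GRCh38, a view chosen after these shares were seen and described without a test. Over 304 blocks the GC-corrected median change lay between -0.72 and 0.59. In 7 runs of neighbouring blocks these corrected medians stood at 0.3 or more, or at -0.3 or less. The medians and counts of each run given next are those before the correction.

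The longest run, on chromosome 1 from TRIM45 to SOX13, held 351 genes, of which 192 (54.7%) were higher and 18 (5.13%) lower, with a median of 0.52. Further along the chromosome, a run of 156 genes from LPGAT1 to PGBD2 had 4 higher and 80 lower (median -0.50), with YAPKO2 libraries below and sgCON libraries above the parental level. On chromosome 2, the 273 genes from MAP3K20 to D2HGDH had 15 higher and 137 lower (median -0.46). In the first and the last of these runs sgCON stayed near the parental level. Relative to the parental mean, the TRIM45 to SOX13 run stood at 0.46, 0.49 and 0.47 in YAPKO2 libraries, against -0.04, -0.07 and -0.07 in sgCON libraries. The chromosome 2 run stood at -0.45, -0.56 and -0.45 in YAPKO2 libraries, against -0.0037, 0.02 and -0.04 in sgCON libraries.

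In other runs sgCON itself stood away from the parental level. On chromosome 14 from MTHFD1 to LGMN, 57 of 120 genes were higher and 5 lower (median 0.40), with -0.05, -0.07 and -0.02 relative to parental cells in YAPKO2, against -0.47, -0.42 and -0.49 in sgCON. On chromosome 6 from DUSP22 to HIST1H4C, 49 of 80 genes were lower (median -0.56), with -0.18, -0.26 and -0.13 in YAPKO2, against 0.32, 0.42 and 0.27 in sgCON. There both lines were off the parental level, on opposite sides. From AL662899.2 to PTCHD4, further along chromosome 6, 37 of 160 genes were lower (median -0.18, and -0.36 after the GC correction), and on chromosome 19 from LRRC4B to COX6B2, 34 of 80 (median -0.48). The 7 runs held 10.0% of the protein-coding genes tested and 16.9% of those called.

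**Figure D5:**
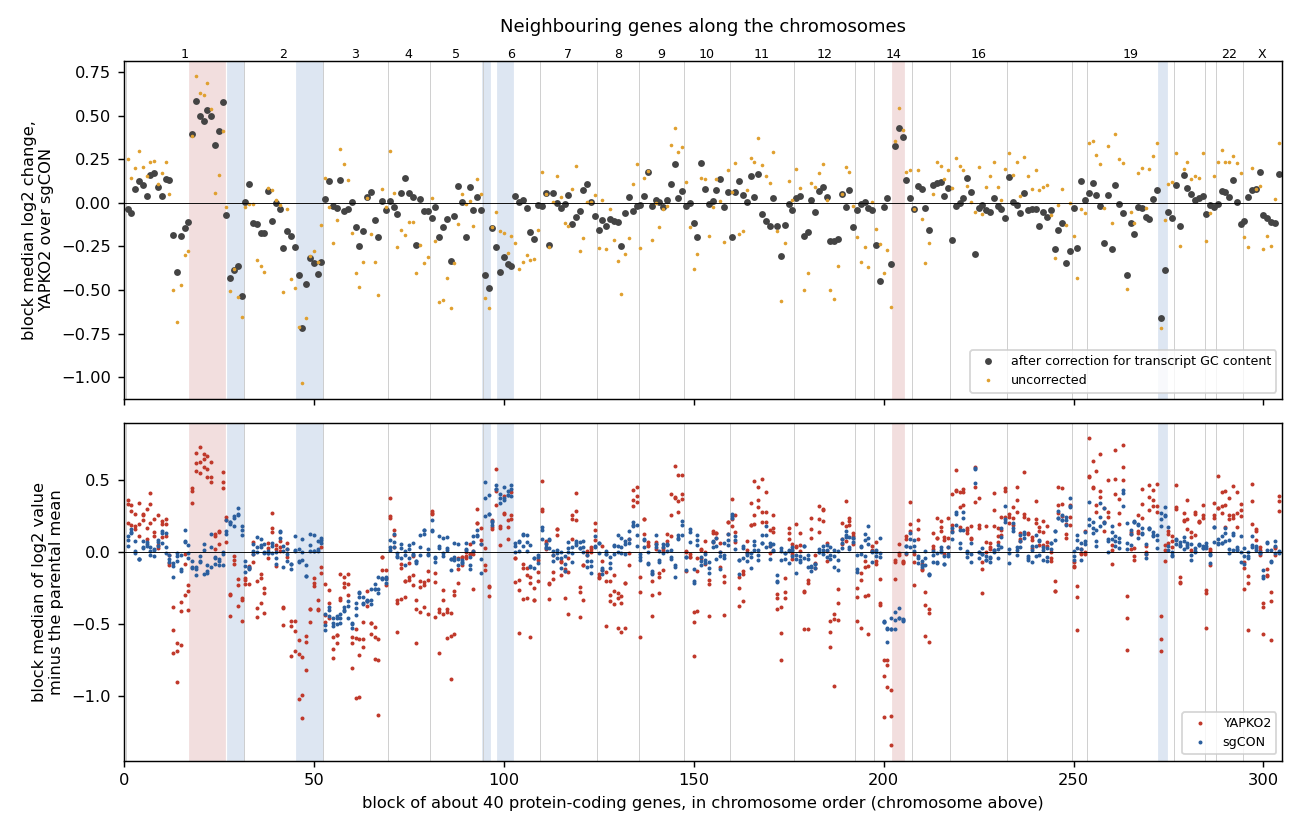
Upper panel, the median log2 change of YAPKO2 over sgCON in each of 304 blocks of about 40 neighbouring protein-coding genes, with and without correction for transcript GC content. Lower panel, the median of the same blocks relative to the parental mean in each of the 3 YAPKO2 and 3 sgCON libraries. Shading marks the 7 runs, red where the median is above 0 and blue where it is below.

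Several genes named above lie in these runs. CASP8, SCG2, CAVIN2, COL3A1, COL6A3, ITGAV and NFE2L2, all lower, lie in the chromosome 2 run, whose median change of -0.46 is smaller in size than that of CASP8 (-4.21) or SCG2 (-2.99). NEUROD1 lies in it too and rose by 3.95 ± 0.25. S100A10 and S100A16 fell although they lie in the chromosome 1 run where most genes were higher, and RGS4 and RPS27 rose within it. TEAD3, CDKN1A and DEK, a chromatin protein gene, lie in the chromosome 6 runs. DEK had 80.9, 24.2 and 41.6 in YAPKO2 cells, against 186, 196 and 157 in sgCON cells, so its log2 change of -2.03 ± 0.52 rests on values that differ between YAPKO2 libraries. DNA copy number was not analysed here.

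The second knockout line shows which large changes differed between the knockout lines. Apart from YAP1, the genes were picked by their change in YAPKO2 against sgCON, which favours larger changes in YAPKO2. Both knockout lines are compared with the same sgCON libraries, so their changes are given side by side, and the direct contrast of YAPKO2 with YAPKO1 is the test. That contrast called 1122 of 16194 genes (6.93%), and YAPKO1 against sgCON called 1927 (11.9%). YAP1 RNA was 3.17, 2.69 and 2.81 in YAPKO2 and 13.2, 12.9 and 9.05 in YAPKO1, a difference of -1.83 ± 0.23 (adjusted p = 4.69e-05). The YAPKO1 line thus kept more YAP1 RNA than YAPKO2.

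DCN was high in YAPKO2 but not in YAPKO1, where it stood at 14.6, 11.2 and 11.8, and the difference was 4.01 ± 0.16 (adjusted p = 2.6e-11). B3GALNT1 was at 8.35, 9.03 and 6.53 in YAPKO1, a difference of -4.04 ± 0.15 (adjusted p = 1.52e-11), and DHRS2, a short-chain dehydrogenase, had 65.3, 86.2 and 71.1 in YAPKO2 and 242, 242 and 306 in YAPKO1 (difference -1.82 ± 0.13). In these 3 genes the change of YAPKO1 against sgCON did not pass, at -0.14, -0.13 and -0.12. CASP8 and IFITM3 had 6.81, 5.18 and 4.89 and 30.2, 29.4 and 41.4 in YAPKO1, with differences of -3.09 ± 0.27 and -3.51 ± 0.20. CXCR4 reached 2.62, 3.61 and 3.96 in YAPKO1, well below its YAPKO2 level (difference 3.15 ± 0.19). S100A10 had 7.32, 3.0 and 7.45 in YAPKO1, so it was low in both lines and lower in YAPKO2 (difference -3.43 ± 0.29).

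Other large changes did not pass this contrast. For NTRK3, ADCYAP1R1 and CITED1 the differences were 0.32 ± 0.37, 0.14 ± 0.25 and 0.15 ± 0.30, with adjusted p = 0.722, 0.826 and 0.842. NEUROD1 had 9.34, 8.75 and 5.27 in YAPKO1, a difference of 0.66 ± 0.25 (adjusted p = 0.149). A p above the threshold does not show that the lines are alike. CDKN1A and MDM2 stood at 144, 148 and 201 and 145, 147 and 82.9 in YAPKO1 and were lower in YAPKO2, with differences of -0.78 ± 0.15 and -1.07 ± 0.28 (adjusted p = 0.00262 and 0.0269). The p53 target sum was 1516 to 1570 in YAPKO1 libraries, between YAPKO2 and sgCON.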

How the data were processed

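The authors deposited 1 table of FPKM per gene for 21 libraries. Per the submitters' processing notes it comes from STAR 2.4.2, RSEM 1.3.0 and hg19, and a copy scaled between libraries by factors of 0.927 to 1.075 gave the gene symbols. Whether counting used strand is not given in the sources used here. The deposited FPKM were divided by a median-ratio factor per library and taken as log2(FPKM + 0.5). Of 57820 rows, 16194 genes with at least 1 FPKM in 3 or more libraries were tested with limma 3.58.1 (R 4.3.3) as 7 group means with 1 spread per gene, two-sided, with Benjamini-Hochberg adjustment and called at an adjusted p of 0.05. Every adjusted p printed comes from this limma model, with n = 3 libraries a group. The steps were tested on simulated data.

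Gene types, neighbours and GC content came from GENCODE v29 (GRCh38), matched by gene identifier, with GC content for 96.4% of tested genes. Alternatives changed the pseudocount, filter, scaling, libraries in the model, GC correction, replicate block or 1 replicate at a time. Lists are described by counts and medians, with no test. Members and lists were chosen with earlier results of these data known.

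Named genes are YAP1, the 12 largest rises and falls and the 6 largest each way at 100 FPKM or more, among called protein-coding genes whose groups do not overlap, up to 5 members of each list by size of change, and a few uncalled YAP partners and targets. AEN, ATF4, AXL, CYFIP2, DUSP4, DUSP5, FAS, FDXR, FOSL2, GAP43, GAPDH, GATA3, HAND2, HK2, IGF1R, ITGB5, LATS1, LATS2, LDHA, MAOA, MAP2, MCL1, MYOF, NRP1, PAM, SPARC, STK3, STK4, TP53I3, TWIST1, UBE2C and VIM were added after their values were seen. Of the 1215 list entries 1209 matched the table. Some genes that these rules select are not reported here.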

Additional observations from a re-analysis of the deposited data

Results flagged for a closer look

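YAP1 and the genes of largest change were compared directly between YAPKO2 and YAPKO1 in DMSO. Of those given here, 24 differed between the 2 knockout lines at an adjusted p of 0.05 in limma, as did 6.93% of all genes tested. Only genes that differed are listed next, and others, such as NTRK3, did not pass. The values are log2 differences, YAPKO2 minus YAPKO1. Among YAP1 and the largest rises they were -1.83 for YAP1, 3.15 for CXCR4, 2.90 for TSPAN13, 4.01 for DCN, 0.85 for COL14A1 and 1.01 for FAM163A. Among the largest falls they were -3.43 for S100A10, -1.88 for ANXA1, -3.09 for MOXD1, -2.78 for MME, -1.34 for CD36 and -2.52 for NPY. Further falls had -3.51 for IFITM3, -2.83 for LBH, -3.09 for CASP8, -4.04 for B3GALNT1, -3.22 for NFE4 and -1.88 for HIST1H4C. Abundant genes of neuronal function had 1.25 for CHRNA3, 1.09 for RGS4 and -2.37 for SCG2. Differences among p53 targets and DHRS2 were -1.07 for MDM2, -0.78 for CDKN1A and -1.82 for DHRS2.

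YAP1 had less RNA in YAPKO2 than in YAPKO1. The large falls named here were deeper in YAPKO2, but they were chosen by their size in YAPKO2 against sgCON, which favours such differences. The part of the YAP1 level in these differences was not tested, and line and guide cannot be told apart. YAPKO1 replicate 3 stood apart from the other YAPKO1 libraries in its GC trend, at 0.67, where the lowest of that line was -0.41. The 4 alternatives run on this contrast gave 96 values for the 24 genes, and all kept their direction and their side of the threshold. Only genes that passed in the main model entered this check, on the same data, which favours such agreement.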

How the results depend on the processing

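YAP1 fell under every alternative run, with log2 changes of -3.11 to -2.70. The count of 4362 called genes (2260 higher and 2102 lower) became 1360 (482 and 878) when a change of 2-fold was also required. With only the 2 compared groups in the model the count was 6016 (2918 and 3098). With the GC correction it was 4984 (2391 and 2593), and with quantile normalization 4576 (2671 and 1905). Leaving out 1 library at a time gave 2572 to 3847 called genes, 1340 to 1958 of them higher and 1232 to 1889 lower, lowest each time without YAPKO2 replicate 2, where fewer libraries enter the model. The cause of its larger effect was not tested. The median of the YAP/TAZ-TEAD factors, -0.16, turned to 0.12 with the GC correction, alone or with the replicate block. That of the catecholamine list, -0.11, lay between -0.27 and 0.036 with 1 library left out, highest without YAPKO2 replicate 3. Of 3088 values for 193 named genes, 157 in 37 genes were no longer called and 0 were reversed. Of 624 list medians 13 moved from the main value by more than a fixed bound and 3 were reversed.

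The labels number the replicates alike in both lines, but same-numbered libraries did not deviate together, with correlations of 0.05, -0.05 and -0.04. The main model therefore has no pairing, though these correlations cannot show that same-numbered libraries were prepared apart. With the replicate block 3856 genes were called, 2013 higher and 1843 lower. Having 3 libraries a group and an unknown depth limits what can be said of low genes.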

Other observations

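Families were picked by symbol after their values were seen and are described without a test. Of 9 tested histone genes of the HIST2 cluster on chromosome 1, 7 were higher in YAPKO2. The median log2 change of the 9 was 1.35, and 1.15 after the GC correction. The same count was called without YAPKO2 replicate 2. These genes lie among neighbours that were mostly higher, but by a median of 0.52. In the HIST1 cluster on chromosome 6, 6 of 23 were higher and 3 lower (median 0.60, and 0.38 after the GC correction). Without that replicate, 2 were higher and 2 lower. Histone genes have near-identical copies, so their values are uncertain. Of 438 zinc finger genes named ZNF, 107 were lower (24.4%) and 39 higher (8.90%), with a median of -0.25. After the GC correction 106 were lower and 28 higher (median -0.21). Without YAPKO2 replicate 2, 48 were lower and 20 higher. ZNF845, ZNF600 and ZNF480, all on chromosome 19, had log2 changes of -2.27, -2.25 and -2.13. The run of neighbours on that chromosome from LRRC4B to COX6B2 had a median of -0.48. The part of such runs in the falls of this family was not tested.

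The WNT ligands split. WNT5B was higher by 2.60 and WNT3 changed by -0.64. WNT5A, a ligand of the non-canonical pathway, was listed at 0 in every YAPKO2 library, against 0.923, 1.39 and 1.73 in sgCON libraries and 3.15, 2.14 and 2.29 in parental libraries. Of 9 FGF ligands 2 were higher and 2 lower, 22.2% each way, against 16.1% and 15.3% of all protein-coding genes tested.

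Among called protein-coding genes, 9 were listed at 0 in every YAPKO2 library and 6 in every sgCON library. SLCO2B1, an organic anion transporter, was at 0 in YAPKO2 and at 3.02, 4.63 and 3.58 in sgCON. CPA4, a carboxypeptidase, was at 0 in YAPKO2, 1.53, 0.998 and 2.47 in sgCON and 22.7, 17.8 and 20.1 in parental cells. PKP1, a desmosomal plaque protein, had 2.99, 3.13 and 3.17 in YAPKO2 and was listed at 0 in every sgCON and parental library. MYOG, the muscle regulator myogenin, had 0.37, 0.441 and 0.343 in YAPKO2 and was likewise listed at 0 in sgCON and parental libraries.

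Protein-coding genes of chromosome 3 lay below the parental mean in both lines, with medians of -0.46, -0.49 and -0.43 in YAPKO2 libraries, against -0.36, -0.35 and -0.35 in sgCON libraries. The block medians of YAPKO1 on this chromosome also lay below it, except in replicate 3 for the block from QARS to CISH (0.04).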
